A study of Mus musculus with 37 samples.

Results

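The genes Slc26a9, Pdgfrb, Lrrc55, Slc17a8, Slpi, Crisp3, Dmbt1, Ret and Fgfr2 were followed in mouse leukemic pre-B cells with and without carbacyclin. These 9 of the 35290 genes in the count tables were chosen by their measured values, with results already known: they had the largest changes in RNA level under carbacyclin, or the largest dependence of that change on the vector the cells carried. No threshold was stated, and the genes were found by symbol. Differences among the libraries with carbacyclin and with DMSO thus made the choice, and they are given below as a description, without a test. All 9 passed the filter on low counts, Slc26a9 and Ret through their carbacyclin libraries alone.

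The cells were pre-B cells from bone marrow of adult C57BL/6 mice without Arf (Arf-/-), transformed by the leukemia fusion kinase BCR-ABL1. Every group shared this genotype. IK6 cells also carried the vector MIG-IK6, which expresses IK6, a dominant-negative form of the transcription factor IKAROS, and MIG cells carried the empty GFP vector MIG. Both were grown without cytokines and received 1 µM of a compound or its solvent DMSO, for a time not given in the sources used here. IK6 cells gave 3 libraries with carbacyclin, 4 with N-oleoylethanolamine (NOE), 3 with bexarotene, 4 with all-trans retinoic acid (ATRA) and 4 with DMSO. MIG cells gave 4 with carbacyclin, 4 with NOE, 3 with bexarotene, 4 with ATRA and 4 with DMSO. The labels do not say how many animals or clones the lines came from, so a difference due to the vector and one between lines cannot be told apart. Whether replicates came from separate cultures is likewise not stated, and the p-values below rest on the spread among libraries, part or all of which may be technical.

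Carbacyclin is a stable analog of prostacyclin. Prostacyclin acts on its receptor IP, encoded by Ptgir, which couples to Gs and raises cyclic AMP, so that protein kinase A phosphorylates CREB, and carbacyclin has also been used as a ligand of the nuclear receptor PPARδ. NOE is a fatty acid ethanolamide known as a PPARα ligand, ATRA binds the retinoic acid receptors, and bexarotene binds the retinoid X receptors, which pair with PPARs and with retinoic acid receptors.

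The 37 libraries held 16478899 to 80388667 counts, with a median of 35101670. Ribosomal protein genes took 7.33 to 11.5% of the counts in 34 libraries. They took 15.5% in MIG carbacyclin replicate 4, 15.4% in MIG DMSO replicate 3 and 12.5% in MIG bexarotene replicate 3. The pre-B cell markers Vpreb1, Igll1, Pax5 and Rag1 each averaged at least 1 CPM (counts scaled to an equal library size) in every group. Ikzf1, the gene of IKAROS, averaged 424 ± 10.7 CPM in IK6 cells and 264 ± 6.07 CPM in MIG cells with DMSO (SD, n = 4 each), and it was higher in IK6 cells with every compound. Whether reads of the IK6 vector were counted under Ikzf1 was not tested.

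Promoters are printed here of Slc26a9 and Lrrc55, which were high with carbacyclin in IK6 cells only, and of Slpi and Crisp3, which were low with both carbacyclin and NOE. They run from 250 bases before to 50 bases after the start site in RefSeq (build GRCm38.p6; the deposited counts use mm9), read 5′ to 3′ on the gene's strand. They lie at chr1:131743772-131744071 (Slc26a9, plus strand), chr2:85198701-85199000 (Lrrc55, minus strand), chr2:164356458-164356757 (Slpi, minus strand) and chr17:40242239-40242538 (Crisp3, minus strand). Capitals mark matches to the motifs described after them.
Slc26a9: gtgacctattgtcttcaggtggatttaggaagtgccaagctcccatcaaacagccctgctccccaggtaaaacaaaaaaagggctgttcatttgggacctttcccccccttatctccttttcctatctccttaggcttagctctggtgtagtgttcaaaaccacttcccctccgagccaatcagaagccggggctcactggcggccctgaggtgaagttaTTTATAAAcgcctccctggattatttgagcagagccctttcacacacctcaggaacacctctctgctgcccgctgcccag
Lrrc55: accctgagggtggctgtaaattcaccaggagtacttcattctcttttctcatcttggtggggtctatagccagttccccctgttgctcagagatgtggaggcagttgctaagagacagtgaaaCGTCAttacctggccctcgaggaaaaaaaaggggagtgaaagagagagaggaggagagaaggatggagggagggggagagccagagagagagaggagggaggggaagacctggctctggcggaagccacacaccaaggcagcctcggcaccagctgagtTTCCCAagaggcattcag
Slpi: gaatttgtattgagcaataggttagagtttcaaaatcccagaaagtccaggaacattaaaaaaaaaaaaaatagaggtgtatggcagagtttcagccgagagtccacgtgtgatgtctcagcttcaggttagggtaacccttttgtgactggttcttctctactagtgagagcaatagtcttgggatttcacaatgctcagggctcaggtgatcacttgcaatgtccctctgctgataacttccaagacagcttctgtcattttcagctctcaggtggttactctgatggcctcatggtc
Crisp3: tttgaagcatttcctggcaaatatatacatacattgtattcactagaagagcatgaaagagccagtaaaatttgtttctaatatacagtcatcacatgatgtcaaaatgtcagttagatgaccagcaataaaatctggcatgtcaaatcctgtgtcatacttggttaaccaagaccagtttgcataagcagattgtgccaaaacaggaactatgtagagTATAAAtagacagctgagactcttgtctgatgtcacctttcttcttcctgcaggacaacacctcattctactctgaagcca

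Of the 9 genes, 6 had a promoter in the RefSeq table. Pdgfrb, Dmbt1 and Ret did not. The letters searched on both strands were TGACGTCA, the cAMP response element that CREB binds (found in 1.79% of 32851 promoters of the same length), its core TGACG, which lies inside the full element (20.8%), ATGCAAAT, the octamer (1.74%), TGGGAA, the core bound by IKAROS (25.6%), TATAAA, the TATA box (13.6%), and the direct-repeat PPAR response element (0.0396%). Slc26a9 had TATAAA at base -28 from the start site, overlapped by a match on the other strand that begins at base -30. Crisp3 had TATAAA at base -31. Lrrc55 held the TGACG core at base -127 and the IKAROS core 32 bases downstream of the start, both on the other strand and so read as CGTCA and TTCCCA. Fgfr2 had an IKAROS core at base -104, and Slpi and Slc17a8 held none of these letters. These matches describe letters within this window only.

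Carbacyclin gave the 9 genes 4 kinds of profile. Slc26a9, Pdgfrb and Lrrc55 were high with carbacyclin in IK6 cells and near 0 in MIG cells. Dmbt1 and Ret were high with carbacyclin in cells of both kinds, while Slc17a8, Slpi and Crisp3 were low. Fgfr2 lay lower with carbacyclin than with DMSO in IK6 cells and, on average, higher in MIG cells. The libraries with carbacyclin and with DMSO did not overlap for 9 of 9 genes in IK6 cells and for 5 of 9 in MIG cells. Across all 15699 genes tested, 39.6% passed the threshold (adjusted p under 0.05) for carbacyclin in IK6 cells and 48% in MIG cells. That is a different measure, and the share of all genes without overlap was not counted. Since these contrasts chose the genes, nothing is read from the counts. In these bulk samples, fewer cells with a transcript and less transcript per cell cannot be told apart.

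**Figure D1:**
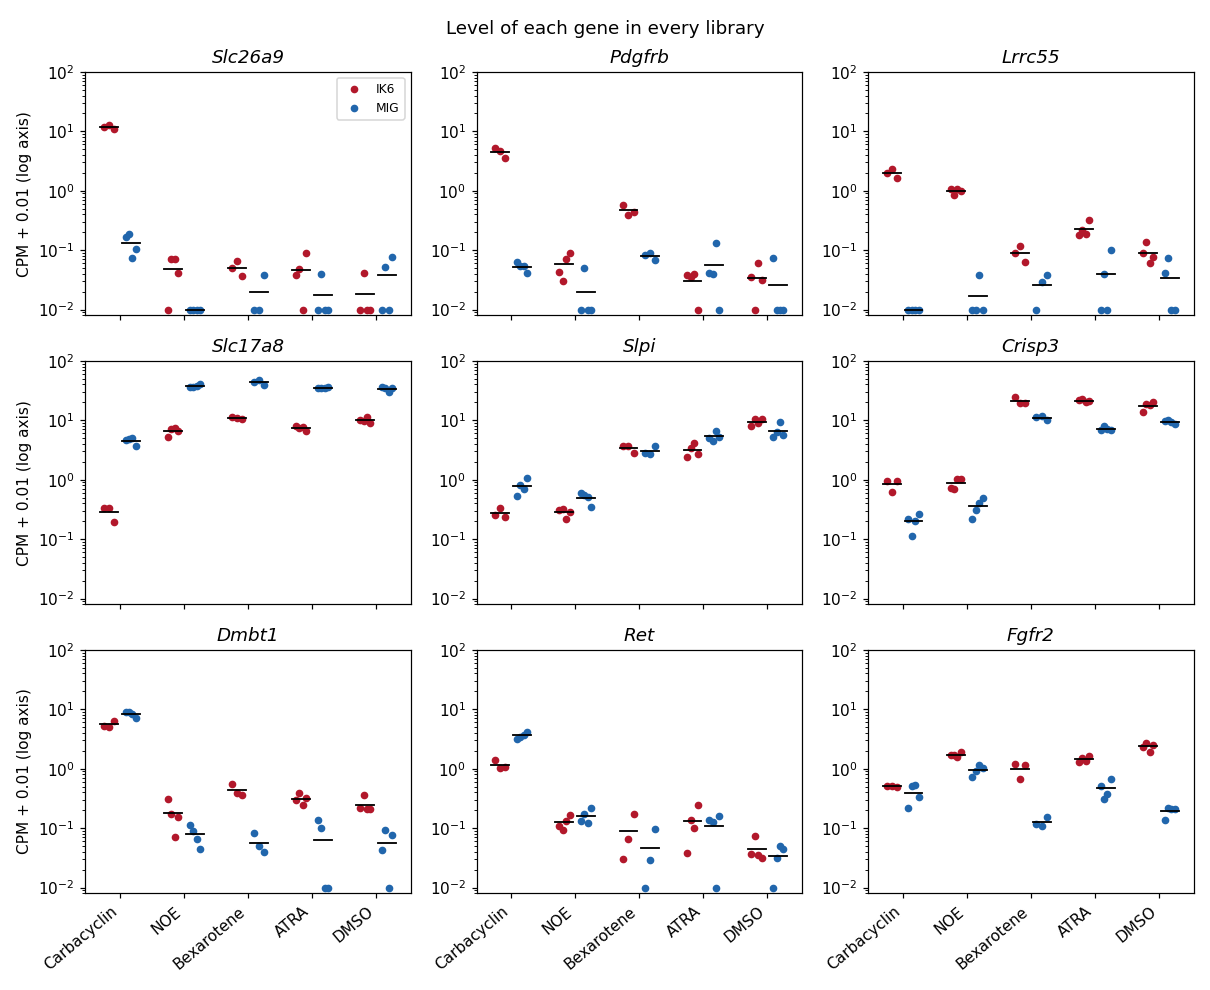
Level of each of the 9 genes (CPM + 0.01, log axis) in each of the 37 libraries, by treatment, with IK6 cells in red, MIG cells in blue and a black line at each group's mean. Slc26a9 stands at 11.1 to 13.0 CPM in IK6 cells with carbacyclin and at 0.174 CPM or less elsewhere, while Crisp3 is at 1.02 CPM or less with carbacyclin and with NOE and at 6.77 to 24.3 CPM in the other groups.

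Slc26a9 encodes an anion transporter and chloride channel of epithelia. Its level was 12.0, 13.0 and 11.1 CPM in IK6 libraries with carbacyclin, against 0, 0.0321, 0 and 0 CPM in IK6 libraries with DMSO, which held 1 count in all. In MIG libraries it was 0.157, 0.174, 0.0648 and 0.0956 CPM with carbacyclin, against 0, 0.0424, 0 and 0.0677 CPM with DMSO. Thus the IK6 libraries with carbacyclin stood far above all others, and those of MIG cells overlapped their DMSO libraries. The ratio of pooled counts, carbacyclin over DMSO, was 1880 in IK6 cells (exact 95% binomial interval 337 to 74400). Intervals and floors given here cover counting error only, since reads were not tagged as molecules. The mean of every group without carbacyclin was at most 0.0407 CPM, and neighbours in the order of those 8 groups overlapped.

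Lrrc55, an auxiliary subunit of BK potassium channels, was at 1.98, 2.30 and 1.63 CPM in IK6 libraries with carbacyclin, against 0.0781, 0.128, 0.0499 and 0.0654 CPM with DMSO. The log2 difference was 4.62 ± 0.32 (SE), with 12 counts in all with DMSO. Here and below, the SE of a large change from a group with few counts can understate the error. This is the gene whose promoter held the CGTCA and TTCCCA matches. In MIG cells it had 0 counts in all 4 libraries with carbacyclin and 4 counts in those with DMSO. Taking 3 counts over the MIG group as its floor, the level with carbacyclin was at least 110-fold higher in IK6 cells than in MIG cells.

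Slc17a8 encodes VGLUT3, a vesicular glutamate transporter. IK6 libraries had 0.322, 0.324 and 0.186 CPM with carbacyclin, against 9.99, 9.73, 11.3 and 9.02 CPM with DMSO. In MIG libraries it was at 4.71, 4.82, 4.99 and 3.66 CPM with carbacyclin, against 36.8, 34.6, 30.1 and 35.1 CPM with DMSO. All libraries with carbacyclin lay below those with DMSO, and IK6 libraries lay below MIG libraries under either treatment. The log2 differences, carbacyclin over DMSO, were -5.12 ± 0.17 in IK6 cells and -2.90 ± 0.10 in MIG cells (SE).

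Pdgfrb encodes the receptor tyrosine kinase for PDGF-B and PDGF-D. It had 5.23, 4.74 and 3.53 CPM in IK6 libraries with carbacyclin, against 0.0260, 0, 0.0499 and 0.0218 CPM with DMSO. In MIG cells the means were 0.0427 ± 0.0084 CPM with carbacyclin and 0.0160 ± 0.0321 CPM with DMSO (SD, n = 4 each), from 7 and 2 counts. Only the IK6 libraries with carbacyclin reached 1 CPM. The log2 difference in IK6 cells was 7.28 ± 0.36 (SE), and the IK6 over MIG difference with carbacyclin was 6.63 ± 0.34. With 4 counts in IK6 cells with DMSO and 7 in MIG cells with carbacyclin, both SEs can understate the error.

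Ret, the receptor tyrosine kinase for ligands of the GDNF family, was at 1.37, 1.03 and 1.04 CPM in IK6 libraries with carbacyclin, against 0.0260, 0.0642, 0.0250 and 0.0218 CPM with DMSO. MIG libraries had 3.14, 3.45, 3.72 and 4.14 CPM with carbacyclin, against 0, 0.0212, 0.0392 and 0.0339 CPM with DMSO. Ret was higher with carbacyclin in cells of both kinds, and there the IK6 libraries lay below the MIG libraries (log2 difference -1.65 ± 0.23, SE). The pooled ratio in MIG cells was 161 (exact 95% binomial interval 54.8 to 783, on 3 counts with DMSO).

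Fgfr2, a receptor tyrosine kinase for fibroblast growth factors, was at 0.509, 0.5 and 0.482 CPM in IK6 libraries with carbacyclin, against 2.34, 2.73, 1.90 and 2.48 CPM with DMSO. In MIG libraries it was at 0.209, 0.493, 0.519 and 0.319 CPM with carbacyclin, against 0.128, 0.212, 0.196 and 0.203 CPM with DMSO. The vectors stood far apart with DMSO (log2 IK6 over MIG 3.63 ± 0.23, SE), whereas with carbacyclin their libraries overlapped (0.24 ± 0.26). In MIG cells the lowest carbacyclin library lay within the DMSO range.

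Dmbt1 encodes a secreted scavenger receptor protein of mucosal defense. It was at 5.25, 4.98 and 6.42 CPM in IK6 libraries with carbacyclin, against 0.208, 0.353, 0.200 and 0.196 CPM with DMSO. In MIG libraries it was at 8.95, 9.11, 8.25 and 6.98 CPM with carbacyclin, against 0.0321, 0.0847, 0 and 0.0677 CPM with DMSO. IK6 libraries lay above MIG libraries with DMSO and below them with carbacyclin. The log2 differences, carbacyclin over DMSO, were 4.55 ± 0.25 in IK6 cells and 7.23 ± 0.31 in MIG cells (SE). The MIG libraries with DMSO held 7 counts in all, so the SE in MIG cells can understate the error.

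Slpi, a secreted inhibitor of leukocyte serine proteases, was at 0.241, 0.324 and 0.223 CPM in IK6 libraries with carbacyclin, against 8.12, 10.4, 9.14 and 10.3 CPM with DMSO. MIG libraries had 0.523, 0.798, 0.691 and 1.05 CPM with carbacyclin, against 5.26, 6.40, 9.48 and 5.55 CPM with DMSO. Carbacyclin libraries lay below DMSO libraries in cells of both kinds, by -5.15 ± 0.27 in IK6 cells and -3.08 ± 0.20 in MIG cells on the log2 scale (SE).

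Crisp3, a secreted cysteine-rich protein of the CAP family, was at 0.938, 0.618 and 0.928 CPM in IK6 libraries with carbacyclin, against 13.5, 18.8, 18 and 20.3 CPM with DMSO. In MIG libraries it was at 0.209, 0.102, 0.194 and 0.255 CPM with carbacyclin, against 9.66, 10.1, 9.37 and 8.74 CPM with DMSO. The log2 differences were -4.41 ± 0.18 in IK6 cells and -5.77 ± 0.20 in MIG cells (SE), and IK6 libraries lay above MIG libraries under either treatment.

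NOE, at the same dose of 1 µM, lowered Slpi and Crisp3, both low with carbacyclin. Each compound was tested against the same DMSO libraries that took part in choosing the genes. With edgeR's quasi-likelihood test, 6 of 9 genes passed in IK6 cells, where 40.9% of all genes tested did: 2 were higher (22.8% of all genes) and 4 lower (18.2%). In MIG cells 5 of 9 passed, where 44.9% of all genes did: 2 were higher (22.6%) and 3 lower (22.3%). With 9 genes, neither count stands far from its background, and the sizes follow. Both counts include Ret, and the MIG count also Slc26a9, genes that passed the filter through their carbacyclin libraries alone.

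Slpi was at 0.301, 0.306, 0.211 and 0.281 CPM in IK6 libraries with NOE, against 8.12 to 10.4 CPM with DMSO. In MIG libraries it was at 0.579, 0.539, 0.509 and 0.340 CPM with NOE, against 5.26 to 9.48 CPM with DMSO. It fell by 5.08 ± 0.22 in IK6 cells (log2 ± SE; edgeR, adjusted p = 1.52e-18), and the change in MIG cells was -3.71 ± 0.21 (adjusted p = 3.56e-16). Crisp3 was at 0.703, 0.693, 1.02 and 1.00 CPM in IK6 libraries with NOE, and at 0.207, 0.300, 0.396 and 0.476 CPM in MIG libraries with NOE. It fell by 4.35 ± 0.15 in IK6 cells (edgeR, adjusted p = 3.02e-21), and the change in MIG cells was -4.84 ± 0.18 (adjusted p = 6.55e-21). For neither gene did a library with NOE reach the lowest with DMSO. Set directly against NOE, as a description, carbacyclin differed by -0.07 ± 0.39 in IK6 cells and 0.63 ± 0.25 in MIG cells for Slpi, and by -0.06 ± 0.21 in IK6 cells and -0.92 ± 0.31 in MIG cells for Crisp3 (log2 ± SE), with overlapping libraries in each case. Of their promoters, that of Crisp3 held TATAAA and that of Slpi none of the letters searched.

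Lrrc55 rose with NOE in IK6 cells. Its level there was 1.04, 0.836, 1.05 and 0.985 CPM, against 0.0781, 0.128, 0.0499 and 0.0654 CPM with DMSO, a rise of 3.59 ± 0.33 on the log2 scale (SE; edgeR, adjusted p = 2.23e-10). MIG libraries held 1 count with NOE and 4 with DMSO, a pooled ratio of 0.204 (exact 95% binomial interval 0.00415 to 2.07), with no call. Slc17a8, by contrast, fell by 0.61 ± 0.09 in IK6 cells (edgeR, adjusted p = 2.19e-06), with libraries at 5.25, 7.01, 7.31 and 6.55 CPM with NOE. In MIG cells it averaged 37.8 ± 1.90 CPM with NOE and 34.2 ± 2.84 CPM with DMSO (SD, n = 4 each), with a log2 difference of 0.14 (95% interval -0.03 to 0.32). Slc26a9 and Pdgfrb, which were high with carbacyclin in IK6 cells, averaged 0.0381 ± 0.0290 CPM and 0.0480 ± 0.0260 CPM there with NOE (SD, n = 4) and did not pass. The 1 DMSO count of Slc26a9 in IK6 cells lay in replicate 2, and without that library the gene passed with NOE (edgeR, adjusted p = 0.0256), bexarotene (0.04) and ATRA (0.036), each on 7 counts or fewer.

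Fgfr2 rose with NOE in MIG cells, to 0.703, 0.899, 1.13 and 1.02 CPM, against 0.128 to 0.212 CPM with DMSO (log2 2.29 ± 0.26, SE; edgeR, adjusted p = 5.18e-09). In IK6 cells it fell by 0.45 ± 0.16 (edgeR, adjusted p = 0.0223), with 1.67, 1.71, 1.56 and 1.89 CPM with NOE against 1.90 to 2.73 CPM with DMSO. Ret was also higher with NOE, but it passed the filter through its carbacyclin libraries alone, and the DMSO libraries took part in choosing it. No response to NOE is therefore read from its calls. Ret had 24 counts in MIG libraries with NOE and 3 with DMSO, a pooled ratio of 6.54 (exact 95% binomial interval 1.99 to 33.9; edgeR, adjusted p = 0.00223). In IK6 cells, with 21 counts with NOE and 5 with DMSO, the log2 change was 1.78 ± 0.61 (edgeR, adjusted p = 0.0196). In IK6 cells the Fgfr2 call was lost without DMSO replicate 2 (edgeR, adjusted p = 0.0819), DMSO replicate 4 or NOE replicate 3, and the Ret call without DMSO replicate 3, DMSO replicate 4 or NOE replicate 4 (0.0924). Dmbt1, high with carbacyclin, averaged 0.166 ± 0.1 CPM with NOE and 0.239 ± 0.0761 CPM with DMSO in IK6 cells, and 0.0685 ± 0.0299 CPM with NOE and 0.0461 ± 0.0378 CPM with DMSO in MIG cells (SD, n = 4 each), with no call.

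One further NOE call rested on very few reads. Slc26a9 in MIG cells had 0 counts with NOE and 4 with DMSO, at least 1.63-fold lower against the floor of 3 counts (edgeR, adjusted p = 0.033). DESeq2 gave an adjusted p of 0.0683, and the edgeR value rose to between 0.0548 and 0.106 without MIG DMSO replicate 2 or 4, or without MIG NOE replicate 1, 2 or 3.

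**Figure D2:**
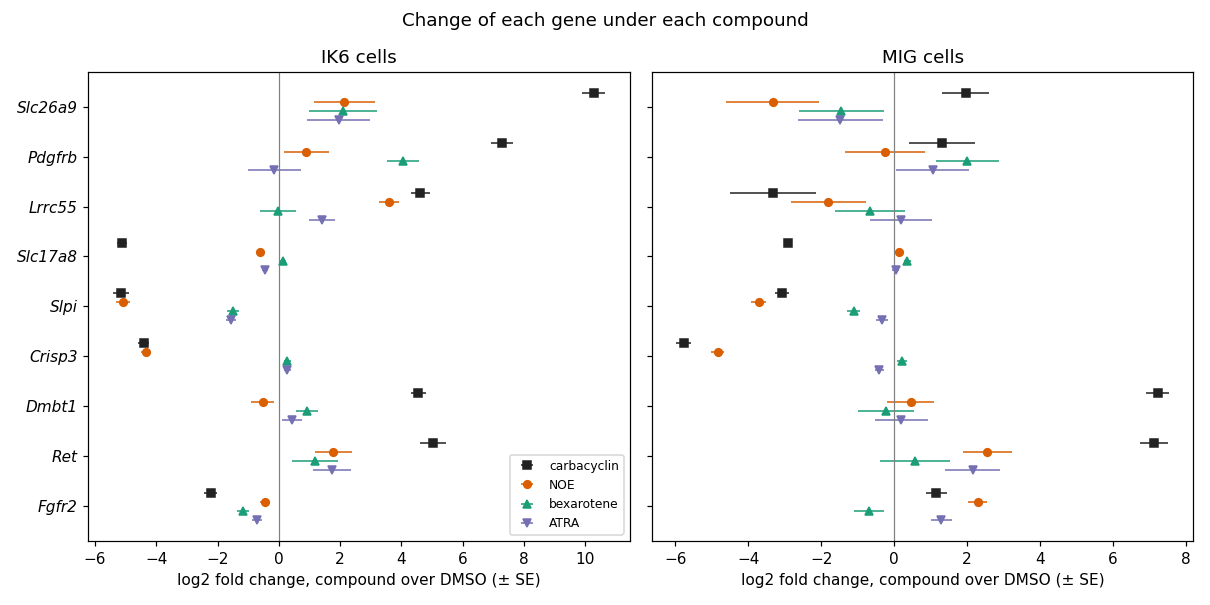
Fitted log2 fold change of each gene, compound over DMSO, with its SE, in IK6 cells (left) and MIG cells (right), for carbacyclin (squares, description only), NOE (circles), bexarotene (triangles pointing up) and ATRA (triangles pointing down). Slpi and Crisp3 lie between -5.77 and -3.08 for both carbacyclin and NOE in both panels, and fitted values of genes with 0 counts in a group (Slc26a9 and Lrrc55 in MIG cells) depend on the prior count.

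Bexarotene raised Pdgfrb in IK6 cells. There its level was 0.567, 0.382 and 0.429 CPM with bexarotene, against 0.0260, 0, 0.0499 and 0.0218 CPM with DMSO, a rise of 4.05 ± 0.51 on the log2 scale (SE; edgeR, adjusted p = 8.48e-08). In MIG cells Pdgfrb had 8 counts with bexarotene and 2 with DMSO, a pooled ratio of 4.71 (exact 95% binomial interval 0.94 to 45.5), which did not pass (edgeR, adjusted p = 0.0687; 0.00593 without MIG DMSO replicate 1, which held both DMSO counts). Slpi fell in cells of both kinds, to 3.37 ± 0.505 CPM with bexarotene, against 9.51 ± 1.10 CPM with DMSO in IK6 cells, and to 3.08 ± 0.564 CPM with bexarotene, against 6.67 ± 1.93 CPM with DMSO in MIG cells (SD). The log2 changes were -1.5 ± 0.19 (SE; edgeR, adjusted p = 5.47e-08) in IK6 cells and -1.11 ± 0.19 (adjusted p = 1.13e-05) in MIG cells.

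Of the other genes, Fgfr2 fell with bexarotene in IK6 cells, to 1.17, 0.656 and 1.13 CPM, against 1.90 to 2.73 CPM with DMSO (log2 -1.18 ± 0.19, SE; edgeR, adjusted p = 5.97e-06). Slc17a8 rose in MIG cells, to 44.7, 47.7 and 39.3 CPM, against 30.1 to 36.8 CPM with DMSO (log2 0.36 ± 0.09, SE; edgeR, adjusted p = 0.00204). Dmbt1 in IK6 cells passed narrowly, with 0.547, 0.382 and 0.349 CPM with bexarotene against 0.196 to 0.353 CPM with DMSO, groups that overlap (log2 0.92 ± 0.35, SE; edgeR, adjusted p = 0.0334). That call was lost without IK6 bexarotene replicate 1 (adjusted p = 0.293) or IK6 DMSO replicate 1, 3 or 4. Crisp3, which was low with carbacyclin and NOE, had no call with bexarotene. It averaged 21.3 ± 2.62 CPM with bexarotene and 17.6 ± 2.91 CPM with DMSO in IK6 cells, and 11.0 ± 0.931 CPM with bexarotene and 9.48 ± 0.589 CPM with DMSO in MIG cells (SD), with 95% intervals of the log2 difference of 0.02 to 0.53 in IK6 cells and -0.05 to 0.48 in MIG cells. In IK6 cells it passed without DMSO replicate 4 (edgeR, adjusted p = 0.0361). In all, 4 of 9 genes passed in IK6 cells (41.8% of all genes tested did), of which 2 were higher (22.3%) and 2 lower (19.4%). In MIG cells 2 of 9 passed (38.1% did), of which 1 was higher (19.9%) and 1 lower (18.2%). Both shares are close to or below the background.

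ATRA lowered Slpi in IK6 cells. Its libraries there were at 2.44, 3.42, 4.10 and 2.74 CPM with ATRA, against 8.12 to 10.4 CPM with DMSO, a fall of 1.57 ± 0.17 on the log2 scale (SE; edgeR, adjusted p = 1.59e-09). In MIG cells Slpi averaged 5.35 ± 0.872 CPM with ATRA and 6.67 ± 1.93 CPM with DMSO (SD, n = 4 each), with overlapping libraries and no call (log2 interval -0.67 to 0.01). Fgfr2 rose in MIG cells, to 0.503, 0.296, 0.369 and 0.653 CPM with ATRA (log2 1.30 ± 0.30, SE; edgeR, adjusted p = 0.000652). In IK6 cells it fell by 0.71 ± 0.16, to 1.27, 1.52, 1.32 and 1.65 CPM (edgeR, adjusted p = 0.000635). In both cases libraries with ATRA and with DMSO did not overlap.

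Lrrc55 rose with ATRA in IK6 cells, to 0.17, 0.212, 0.179 and 0.313 CPM, against 0.0499 to 0.128 CPM with DMSO (log2 1.42 ± 0.43, SE; edgeR, adjusted p = 0.00745). Slc17a8 fell there by 0.44 ± 0.09, to 6.62 to 7.96 CPM, against 9.02 to 11.3 CPM with DMSO (edgeR, adjusted p = 0.000273). Crisp3 fell in MIG cells by 0.41 ± 0.13, to 6.77 to 7.87 CPM, against 8.74 to 10.1 CPM with DMSO (edgeR, adjusted p = 0.00896). Calls close to the threshold were those of Ret in IK6 cells (log2 1.73 ± 0.62; edgeR, adjusted p = 0.0236), Ret in MIG cells (13 counts with ATRA and 3 with DMSO, pooled ratio 5.00, exact 95% binomial interval 1.37 to 27.4; adjusted p = 0.0203) and Crisp3 in IK6 cells (log2 0.28 ± 0.12; adjusted p = 0.0463). Leaving out any of several single libraries ended them: for Ret in IK6 cells DMSO replicate 1, 3 or 4 or ATRA replicate 2 or 4 (edgeR, adjusted p up to 0.0764), for Ret in MIG cells DMSO replicate 1 or 2 or ATRA replicate 4 (up to 0.068), and for Crisp3 DMSO replicate 1 or 3 or any ATRA replicate (up to 0.238). In all, 6 of 9 genes passed in IK6 cells (43.6% of all genes tested did), of which 3 were higher (22.7%) and 3 lower (20.9%). In MIG cells 3 of 9 passed (41.8% did), of which 2 were higher (20.6%) and 1 lower (21.2%). With 9 genes, neither count stands far from its background, and leaving out single libraries gave 4 to 7 calls in IK6 cells. Both counts include Ret, which passed the filter through its carbacyclin libraries alone. The DMSO libraries also took part in choosing Ret, so no response to ATRA is read from its calls.

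NOE and bexarotene were each also set against ATRA at 1 µM, without carbacyclin or DMSO libraries. With NOE against ATRA, chosen after the data were seen, Slpi was lower by -3.51 ± 0.24 in IK6 cells (log2 ± SE; edgeR, adjusted p = 4.83e-14) and by -3.38 ± 0.21 in MIG cells (adjusted p = 8.31e-15). Crisp3 was lower by -4.63 ± 0.15 in IK6 cells (edgeR, adjusted p = 3.09e-22) and by -4.44 ± 0.18 in MIG cells (adjusted p = 1.04e-19). Lrrc55 was higher with NOE in IK6 cells by 2.17 ± 0.27 (edgeR, adjusted p = 8.74e-08), and Fgfr2 was higher with NOE in MIG cells by 0.99 ± 0.22 (adjusted p = 0.000627). Dmbt1 in IK6 cells differed by -0.97 ± 0.35 (edgeR, adjusted p = 0.0239), a call lost without ATRA replicate 2 (adjusted p = 0.139), NOE replicate 3 or NOE replicate 4 of those cells. With NOE against ATRA, 4 of 9 genes passed in IK6 cells (44.4% of all genes tested did), of which 1 was higher (24.1%) and 3 lower (20.4%). In MIG cells 3 of 9 passed (33.8% did), of which 1 was higher (16.8%) and 2 lower (17.1%). Both shares are near the background.

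Against ATRA, bexarotene gave a higher Pdgfrb in IK6 cells, at 0.567, 0.382 and 0.429 CPM with bexarotene against 0.0283, 0.0250, 0.0299 and 0 CPM with ATRA (log2 4.20 ± 0.51, SE; edgeR, adjusted p = 9.92e-08). Slc17a8 was higher in IK6 cells by 0.55 ± 0.10 (edgeR, adjusted p = 8.98e-05) and in MIG cells by 0.32 ± 0.09 (adjusted p = 0.00926; 0.0838 without MIG bexarotene replicate 2). In MIG cells Fgfr2 was lower by -1.99 ± 0.35 (edgeR, adjusted p = 4.76e-05), Slpi was lower by -0.78 ± 0.19 (adjusted p = 0.00187) and Crisp3 was higher by 0.62 ± 0.13 (adjusted p = 0.000501). Lrrc55 in IK6 cells was lower by -1.44 ± 0.49 (edgeR, adjusted p = 0.0314; 0.138 without IK6 bexarotene replicate 3, and lost in DESeq2 at 0.0537). The Lrrc55 call was also lost without IK6 bexarotene replicate 1 or IK6 ATRA replicate 2 or 4. In all, 3 of 9 genes passed in IK6 cells (21.9% of all genes tested did), of which 2 were higher (11.7%) and 1 lower (10.2%). In MIG cells 4 of 9 passed (23.6% did), of which 2 were higher (12.6%) and 2 lower (11%). With 9 genes, neither count stands far from its background. Slpi and Crisp3 in IK6 cells did not pass, with 95% intervals of the log2 difference of -0.31 to 0.46 for Slpi and -0.26 to 0.25 for Crisp3.

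IK6 and MIG cells differed in several of these genes without carbacyclin. In the libraries with NOE, bexarotene or ATRA, whose values did not choose the genes, IK6 against MIG passed for 6 of 9 genes with NOE (32.6% of all genes tested did), 4 higher (18.9%) and 2 lower (13.7%). With bexarotene 5 of 9 passed (21% did), 4 higher (11.1%) and 1 lower (9.95%). With ATRA 6 of 9 passed (40.9% did), 4 higher (20.9%) and 2 lower (20%). With 9 genes, the ATRA count does not stand far from its background, and the counts with NOE and bexarotene lie above theirs. Since the genes were chosen partly for a dependence of their change on the vector, nothing is read from this excess. The NOE count includes Slc26a9, which passed the filter through its carbacyclin libraries alone. Slc17a8 was lower in IK6 cells throughout, by -2.53 ± 0.09 with NOE, -2.02 ± 0.11 with bexarotene and -2.25 ± 0.09 with ATRA (log2 ± SE; edgeR, adjusted p = 1.15e-20, 1.75e-16 and 1.69e-19 in that order). Crisp3 was higher in IK6 cells, by 1.39 ± 0.23, 0.95 ± 0.14 and 1.58 ± 0.12 with the same compounds (edgeR, adjusted p = 6.99e-06, 1.56e-06 and 1.63e-12). Fgfr2 was higher in IK6 cells by 0.89 ± 0.18, 3.13 ± 0.32 and 1.62 ± 0.21 (edgeR, adjusted p = 0.000117, 1.47e-09 and 1.25e-07). For these 3 genes IK6 and MIG libraries did not overlap with any of the 3 compounds.

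Among the 9 genes with these 3 compounds, Lrrc55 with NOE had the widest gap between the vectors. It had 170 counts in IK6 libraries and 1 in MIG libraries, a pooled ratio of 157 (exact 95% binomial interval 27.9 to 6260; edgeR, adjusted p = 2.37e-12). With ATRA it was 0.17 to 0.313 CPM in IK6 libraries and 0 to 0.0891 CPM in MIG libraries (log2 2.52 ± 0.55, SE; edgeR, adjusted p = 0.000442). Pdgfrb was higher in IK6 cells with bexarotene, at 0.382 to 0.567 CPM against 0.0577 to 0.0785 CPM in MIG cells (log2 2.71 ± 0.47, SE; edgeR, adjusted p = 3.11e-05). Dmbt1 was higher in IK6 cells with bexarotene, at 0.349 to 0.547 CPM against 0.0289 to 0.0722 CPM in MIG cells (log2 3.23 ± 0.53, SE; edgeR, adjusted p = 1.37e-05), and with ATRA (2.32 ± 0.48; adjusted p = 0.000191). Slpi was lower in IK6 cells with ATRA (-0.73 ± 0.17; edgeR, adjusted p = 0.000809) and with NOE (-0.85 ± 0.30; adjusted p = 0.0265, lost at 0.0555 to 0.0719 without NOE replicate 1 or 2 of MIG cells or NOE replicate 3 or 4 of IK6 cells). Ret passed with none of the 3 compounds, with 95% intervals of the log2 difference of -1.20 to 0.59 with NOE, -0.59 to 2.69 with bexarotene and -1.02 to 1.09 with ATRA. The remaining call, Slc26a9 with NOE, rested on 7 counts in IK6 libraries and 0 in MIG libraries, at least 2.16-fold higher against the floor (edgeR, adjusted p = 0.0152).

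**Figure D3:**
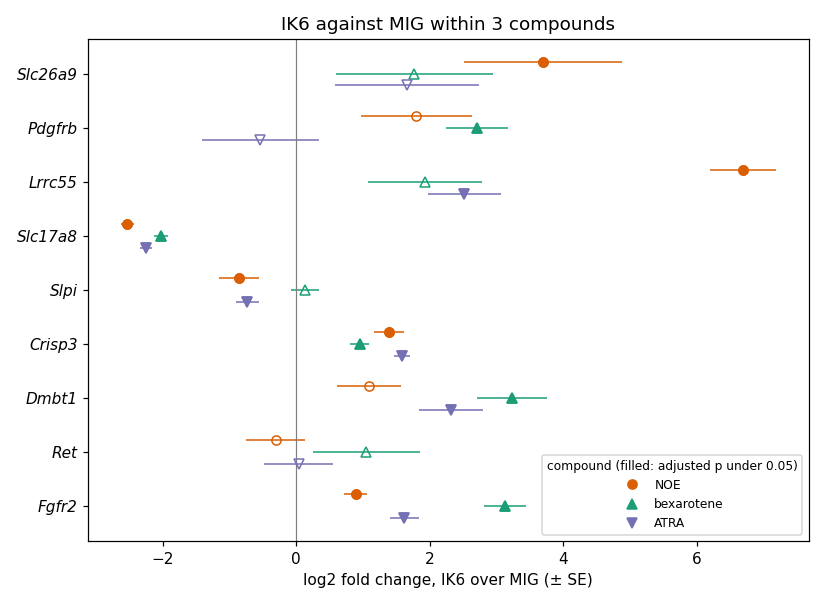
Fitted log2 fold change of each gene, IK6 over MIG, with its SE, for libraries with NOE (circles), bexarotene (triangles pointing up) and ATRA (triangles pointing down), filled where the adjusted p was under 0.05. Slc17a8 lies between -2.53 and -2.02 and Crisp3 between 0.95 and 1.58 with all 3 compounds, while the value of Slc26a9 with NOE, where MIG libraries had 0 counts, depends on the prior count.

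Whether a compound acted differently in IK6 and MIG cells was tested as an interaction, IK6 change minus MIG change, on the log2 scale. For NOE, 5 of 9 genes passed, against 8.82% of all genes tested: 2 were positive (6.62% of all genes) and 3 negative (2.2%). Fgfr2 gave -2.74 ± 0.31 (SE; edgeR, adjusted p = 9.52e-08), Slc17a8 -0.75 ± 0.13 (adjusted p = 8.17e-05) and Slpi -1.37 ± 0.34 (adjusted p = 0.00656). Fgfr2 thus moved apart in direction, rising in MIG cells and falling in IK6 cells, and Slpi fell further in IK6 cells. The positive values of Lrrc55 (5.40 ± 1.22; edgeR, adjusted p = 0.00316) and Slc26a9 (5.47 ± 1.62; adjusted p = 0.0292) rest on 4 counts or fewer in MIG groups, and without MIG DMSO replicate 2 neither passed (edgeR, adjusted p = 0.287 for Lrrc55 and 0.0879 for Slc26a9). The Slc26a9 call was lost without any of 7 other libraries as well. Slc26a9 passed the filter through its carbacyclin libraries alone, and in IK6 cells it had 1 count with DMSO and 7 with NOE.

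For ATRA, 4 of 9 genes passed the interaction, against 9.78% of all genes tested: 1 was positive (5.34%) and 3 negative (4.44%). Fgfr2 gave -2.01 ± 0.34 (SE; edgeR, adjusted p = 0.000108), Slpi -1.24 ± 0.23 (adjusted p = 0.000379), Crisp3 0.69 ± 0.17 (adjusted p = 0.00682) and Slc17a8 -0.48 ± 0.13 (adjusted p = 0.0131). For bexarotene, 0 of 9 passed in edgeR and 0 in DESeq2, with 1 at an unadjusted p under 0.05, against 5.69% of all genes tested (3.13% positive, 2.56% negative). The NOE and ATRA counts lie above their backgrounds. These interactions share the DMSO libraries that helped choose genes for a dependence on the vector, so nothing is read from this excess. For carbacyclin itself, 8.83% of all genes passed (5.66% positive, 3.17% negative). The values of the 9 genes, given without a test, ran from 8.32 ± 1.42 for Slc26a9 to -3.40 ± 0.36 for Fgfr2.

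Genes of the pathways around carbacyclin were counted in lists chosen with earlier results of these data known. Among all 15699 genes tested with carbacyclin against DMSO, 20.8% rose and 18.8% fell in IK6 cells, and 24.7% rose and 23.3% fell in MIG cells, with median log2 changes of 0.01 in IK6 cells and 0.02 in MIG cells. Of 17 genes known to respond to cyclic AMP and CREB, 8 rose and 2 fell in IK6 cells (median 0.30), and 10 rose and 3 fell in MIG cells (median 0.34). Crem, a gene of this pathway counted as a whole without telling its products apart, rose in cells of both kinds. In IK6 cells it rose to 63.9 ± 1.59 CPM with carbacyclin, against 13.9 ± 0.722 CPM with DMSO (SD; edgeR, adjusted p = 2.50e-20). In MIG cells it rose to 70.8 ± 11.7 CPM with carbacyclin, against 11.2 ± 0.662 CPM with DMSO (SD; edgeR, adjusted p = 5.66e-23). The cyclic AMP phosphodiesterases Pde4b (log2 1.34 ± 0.06 in IK6 cells, 1.75 ± 0.05 in MIG cells, SE) and Pde3b (0.85 ± 0.09 and 1.14 ± 0.08 in that order) rose as well. Nr4a3, an orphan nuclear receptor, rose by 3.99 ± 0.23 in IK6 cells and by 1.59 ± 0.35 in MIG cells, and its interaction passed (2.40 ± 0.47; edgeR, adjusted p = 0.000552). Egr1, of the same list, was lower with carbacyclin. Its log2 changes were -2.19 ± 0.13 in IK6 cells and -0.37 ± 0.12 in MIG cells (SE; edgeR, adjusted p = 2.3e-15 and 0.0107).

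The list of PPAR target genes also held Ppard, the gene of the receptor PPARδ. Of the 13 tested genes of this list, 8 rose and 0 fell in IK6 cells (median log2 0.75). In MIG cells 8 rose and 2, Ppard itself and Cd36, fell (median 0.38). Pdk4, which restrains glucose oxidation, was at 5.10 ± 0.373 CPM with carbacyclin, against 0.00545 ± 0.0109 CPM with DMSO in IK6 cells, and at 0.956 ± 0.0496 CPM with carbacyclin, against 0 counts with DMSO in MIG cells. Cpt1a, the carnitine palmitoyltransferase of fatty acid oxidation, rose by 2.39 ± 0.05 in IK6 cells and 2.38 ± 0.05 in MIG cells (log2 ± SE; edgeR, adjusted p = 2.06e-26 and 3.47e-27). Slc25a20, the mitochondrial carnitine-acylcarnitine carrier, rose by 2.98 ± 0.13 in IK6 cells and 3.23 ± 0.12 in MIG cells. Angptl4, a lipoprotein lipase inhibitor, rose by 2.58 ± 0.22 in IK6 cells and 0.50 ± 0.20 in MIG cells, with an interaction of 2.08 ± 0.29 (edgeR, adjusted p = 4.31e-06).

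Of the receptors, Ptgir fell to 1.13 ± 0.199 CPM with carbacyclin, against 2.61 ± 0.344 CPM with DMSO in IK6 cells, and to 0.149 ± 0.0804 CPM with carbacyclin, against 0.414 ± 0.17 CPM with DMSO in MIG cells (SD; edgeR, adjusted p = 1.44e-06 and 4.38e-05). Ppard, the gene of PPARδ, averaged 39.8 ± 6.03 CPM with carbacyclin and 35.9 ± 2.09 CPM with DMSO in IK6 cells, without a call, and fell in MIG cells by 0.63 ± 0.10 on the log2 scale. Among 14 tested prostanoid receptors and synthases, 5 rose and 5 fell in IK6 cells (median 0.10), and 4 rose and 3 fell in MIG cells (median 0.01).

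**Figure D4:**
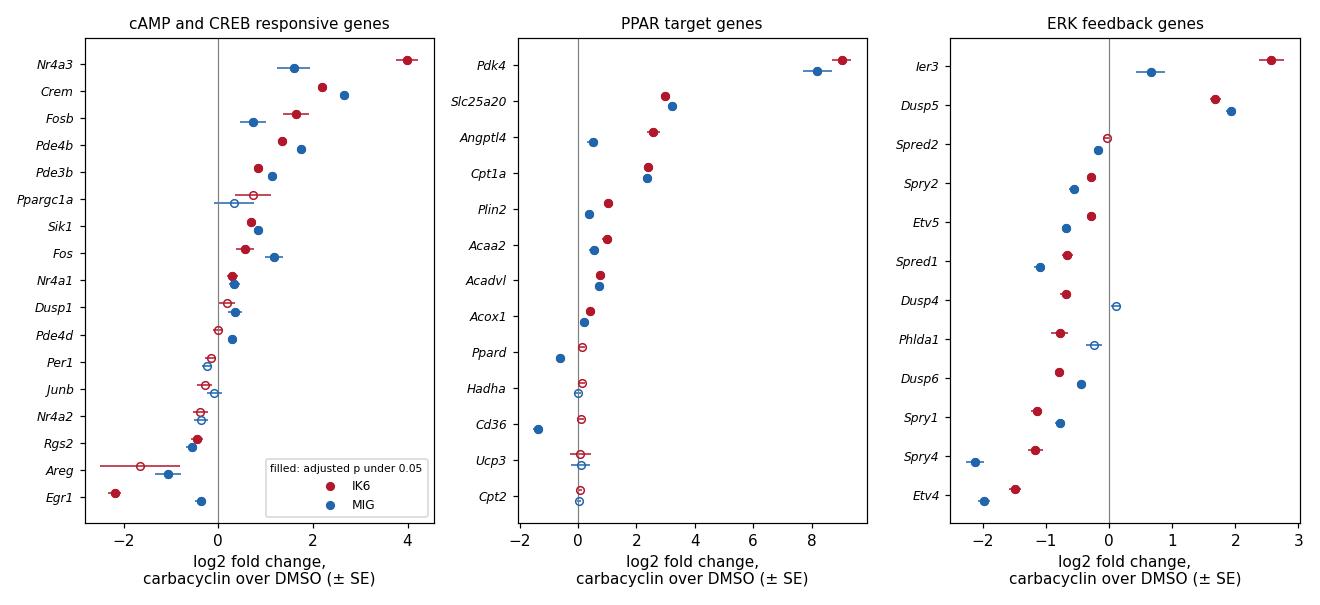
Fitted log2 fold change, carbacyclin over DMSO, with its SE, of cyclic AMP and CREB responsive genes (left), PPAR target genes (middle) and ERK feedback genes (right) in IK6 cells (red) and MIG cells (blue), filled where the adjusted p was under 0.05. The middle panel includes the receptor gene Ppard. Crem lies at 2.20 in IK6 cells and 2.66 in MIG cells and Etv4 at -1.49 in IK6 cells and -1.98 in MIG cells. The value of Pdk4 in MIG cells, with 0 counts with DMSO, depends on the prior count.

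The receptor tyrosine kinases Pdgfrb, Ret and Fgfr2 were set beside their relatives and the ERK pathway on which such receptors converge. Of 10 tested relatives and co-receptors, 4 rose and 0 fell in cells of both kinds (median log2 0.41 in IK6 cells, 0.17 in MIG cells), and 15 others, among them the ligand genes Pdgfa and Gdnf, had too few counts to test. The 4 were Fgfr1, Kit, Flt3 and Csf1r. Flt3, a receptor of early progenitors, rose by 2.99 ± 0.18 in IK6 cells and 2.61 ± 0.17 in MIG cells (log2 ± SE; edgeR, adjusted p = 3.94e-15 and 1.03e-14). The co-receptor of Ret, Gfra1, averaged 99.8 ± 4.06 CPM with carbacyclin and 97.0 ± 1.63 CPM with DMSO in IK6 cells, and 123 ± 9.30 CPM with carbacyclin and 126 ± 4.90 CPM with DMSO in MIG cells (SD), without a call. Of 12 feedback genes of ERK signaling, 2 rose and 9 fell in IK6 cells (median -0.67), and 2 rose and 8 fell in MIG cells (median -0.50). Etv4, an ETS factor induced by ERK signaling, fell by 1.49 ± 0.10 in IK6 cells and 1.98 ± 0.10 in MIG cells (log2 ± SE; edgeR, adjusted p = 8.29e-14 and 2.55e-17), whereas Dusp5, an ERK phosphatase, rose by 1.68 ± 0.09 in IK6 cells and 1.93 ± 0.08 in MIG cells.

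Relatives of the transporters and of the secreted proteins were counted in the same way. Of 13 tested transporter and channel subunit relatives, 2 rose and 4 fell in IK6 cells (median log2 -0.32), and 1 rose and 2 fell in MIG cells (median 0.06, or 0 with the gene at 0 counts set to its bound). Of the other vesicular glutamate transporters, Slc17a6 had 0 counts in these groups. Slc17a7 averaged 0.274 ± 0.121 CPM with carbacyclin and 0.357 ± 0.197 CPM with DMSO in IK6 cells, and 0.300 ± 0.0965 CPM with carbacyclin and 0.358 ± 0.147 CPM with DMSO in MIG cells (SD). Of the vesicular transporter family, Slc17a9, which carries nucleotides, fell by 1.03 ± 0.14 in IK6 cells and by 0.67 ± 0.12 in MIG cells (log2 ± SE; edgeR, adjusted p = 2.41e-07 and 3.62e-05), and Slc17a5, the lysosomal sialic acid transporter, fell by 0.45 ± 0.07 in IK6 cells (adjusted p = 8.38e-06). Slc26a6, an anion exchanger related to Slc26a9, rose by 0.73 ± 0.16 in IK6 cells and by 0.91 ± 0.16 in MIG cells. Kcnmb1, another auxiliary BK subunit, fell in IK6 cells to 0.494 ± 0.274 CPM with carbacyclin, against 1.33 ± 0.163 CPM with DMSO (SD; edgeR, adjusted p = 0.00109). Kcnma1, the BK channel pore that Lrrc55 modifies, rose in IK6 cells to 0.692 ± 0.230 CPM with carbacyclin, against 0.244 ± 0.0868 CPM with DMSO (SD; edgeR, adjusted p = 0.002). Of 10 tested relatives and partners of the secreted proteins, 2 rose and 5 fell in IK6 cells (median -0.57), and 4 rose and 2 fell in MIG cells, where the median (-0.22) was below 0 although more genes rose than fell. Crisp1, the closest relative of Crisp3, fell in IK6 cells by 0.40 ± 0.13 (edgeR, adjusted p = 0.0151), with a log2 difference of -0.33 ± 0.15 in MIG cells (adjusted p = 0.0755).

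Several genes shared the profile of a gene in the set across the 10 group means, measured as Pearson's r on log2(CPM + 0.5) over 13304 genes with at least 1 CPM in a group. These correlations describe groups that share treatments and vectors, and carry no test. Nearest to Slc26a9 were Apol7c (r = 0.998), the chemokine gene Ccl22 (0.996) and Coch (0.993), and nearest to Pdgfrb were Ccl22 (0.97), Slc26a9 itself (0.965) and Apol7c (0.961). Ccl22 averaged 11.0 ± 1.5 CPM in IK6 cells and 0.0419 ± 0.0400 CPM in MIG cells with carbacyclin (SD). Lrrc55 went with Macrod2 (r = 0.989), the water channel gene Aqp1 (0.974) and Tgfbr3 (0.962), and Aqp1 averaged 3.02 CPM with carbacyclin, 1.72 CPM with NOE and 0.409 CPM with DMSO in IK6 cells. Dmbt1 went with Xirp1 (0.996) and Mxd1 (0.992), a repressor of the MAX network, which averaged 94.4 CPM with carbacyclin and 23.6 CPM with DMSO in IK6 cells, and 159 CPM with carbacyclin and 19.6 CPM with DMSO in MIG cells. Ret went with Lzts1 (0.994), the bradykinin receptor gene Bdkrb2 (0.992) and Nmnat2 (0.992). For Slc17a8 the nearest were A830093I24Rik (0.986) and Cyp4f13 (0.971), for Slpi Papd4 (0.963), for Crisp3 Zfp318 (0.982), Rasgrp3 (0.973) and the early growth response gene Egr2 (0.963), and for Fgfr2 Trip10 (0.938). Over the 37 libraries r was lower for A830093I24Rik (0.732), Papd4 (0.766) and Trip10 (0.805). Papd4 averaged 63.3 to 80.4 CPM over the groups, a far narrower span than the 0.263 to 9.51 CPM of Slpi.

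The genes lay on chromosomes 1 (Slc26a9), 2 (Lrrc55 and Slpi), 6 (Ret), 7 (Dmbt1 and Fgfr2), 10 (Slc17a8), 17 (Crisp3) and 18 (Pdgfrb), and their nearest counted neighbours in the order of RefSeq (GRCm38.p6), 2 on each side, were read with carbacyclin against DMSO. Csf1r, next to Pdgfrb, rose by 2.28 ± 0.34 in IK6 cells and by 2.40 ± 0.42 in MIG cells (log2 ± SE; edgeR, adjusted p = 1.53e-06 and 1.59e-05), whereas Pdgfrb had 7 counts with carbacyclin in MIG cells. Htra1, near Dmbt1, rose on few counts, with 19 counts with carbacyclin and 2 with DMSO in IK6 cells, and 58 with carbacyclin and 2 with DMSO in MIG cells (edgeR, adjusted p = 0.000187 and 1.24e-06). Pgk2, near Crisp3, fell, with 0 counts with carbacyclin and 42 with DMSO in IK6 cells, and 0 with carbacyclin and 54 with DMSO in MIG cells (edgeR, adjusted p = 0.000131 and 7.76e-07). Nr1h4, the bile acid receptor gene near Slc17a8, fell in IK6 cells, with 1 count with carbacyclin and 63 with DMSO (edgeR, adjusted p = 2.82e-07), and had 4 counts with carbacyclin and 6 with DMSO in MIG cells. Rasgef1a, near Ret, rose by 2.49 ± 0.53 in MIG cells (edgeR, adjusted p = 0.000209), with -0.74 ± 0.48 in IK6 cells. Ctse and Slc41a1, near Slc26a9, did not pass in cells of either kind. Nor did Hmgxb3 near Pdgfrb, Scyl2 near Slc17a8, Rbpjl near Slpi, or Wdr11, Gm5903 and Ate1 near Fgfr2. Gas2l3, AY036118, Crisp1, Csgalnact2, Bms1, Zfp248 and Sec23ip passed in IK6 cells, MIG cells or both. Among all genes tested, 39.6% passed in IK6 cells and 48% in MIG cells.

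Markers of other cell types were read beside these genes. Of 12 epithelial markers, 2 averaged at least 1 CPM with carbacyclin, and their summed level was 73.4 to 93.0 CPM with carbacyclin, against 7.91 to 9.89 CPM with DMSO in IK6 cells, and 65.8 to 88.3 CPM with carbacyclin, against 7.32 to 8.31 CPM with DMSO in MIG cells. Cdh1 made up most of it (79.7 CPM with carbacyclin and 5.30 CPM with DMSO in IK6 cells), and Epcam averaged 5.62 CPM with carbacyclin and 2.86 CPM with DMSO in IK6 cells, and 6.50 CPM with carbacyclin and 2.40 CPM with DMSO in MIG cells, while the keratin gene Krt5 had 0 counts and Krt8 and Krt19 had 0 in all carbacyclin libraries. Muc1 averaged 0.254 CPM with carbacyclin and 0.69 CPM with DMSO in IK6 cells, and 0.628 CPM and 0.63 CPM in MIG cells. Krt18 averaged 0.0187 CPM with carbacyclin and 0.0265 CPM with DMSO in IK6 cells, and 0.0109 CPM and 0.0382 CPM in MIG cells. The part of these markers in the levels of the epithelial genes Slc26a9, Dmbt1 and Slpi was not tested. Of 12 neutrophil and monocyte markers, 2 averaged at least 1 CPM with carbacyclin, with sums of 12.2 to 16.4 CPM with carbacyclin, against 4.30 to 5.86 CPM with DMSO in IK6 cells, and of 8.01 to 12.4 CPM with carbacyclin, against 3.45 to 4.88 CPM with DMSO in MIG cells, and S100a8 and S100a9 had 0 counts throughout. Lyz2, the macrophage and neutrophil lysozyme, averaged 9.75 CPM with carbacyclin and 2.88 CPM with DMSO in IK6 cells, and 3.54 CPM with carbacyclin and 0.621 CPM with DMSO in MIG cells. Of 12 stromal and pericyte markers only Vim reached 1 CPM, and Dcn had 0 counts throughout. Their sum was 233 to 275 CPM with carbacyclin, against 252 to 288 CPM with DMSO in IK6 cells, where Pdgfrb was high, and 142 to 209 CPM with carbacyclin, against 251 to 309 CPM with DMSO in MIG cells. Vim made up nearly all of it, and its part in the level of Pdgfrb was not tested.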

How the data were processed

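RNA was measured in 37 libraries, prepared per the labels' protocols with Trizol and Illumina TruSeq RNA v2. The deposited values were raw read counts per gene, 1 file per library. The submitters' processing notes name the aligner BWA (version 0.5.9), the counter HTSeq and, as genome build, mm9. How strands and overlaps were counted, and the annotation, were not stated in the sources used, so reads shared with overlapping or antisense genes cannot be told apart.

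From the counts, edgeR 4.0.16 (R 4.3.3) was fitted once to all 10 groups, with TMM scaling, the filterByExpr filter (minimum count 10, minimum total 15; 15699 genes kept), robust quasi-likelihood dispersions (27 residual degrees of freedom) and a two-sided test. Adjusted p-values are Benjamini-Hochberg values over all 15699 genes within 1 comparison, with a threshold of 0.05. CPM values use the TMM-scaled library sizes. SE is the log2 fold change divided by the root of the F statistic, which can understate the error of a large change from few counts. Where a group held 1 to 3 counts, the ratio of pooled counts has an exact 95% binomial interval. Where it held 0, a bound was taken from 3 counts over the group. The procedure was tested on simulated counts.

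The 9 genes, the gene lists and the comparisons were chosen with earlier results of these data known, and NOE against ATRA was added after the data were seen. For the 9 genes 16 comparisons were tested and 7, which involve carbacyclin or the vectors with DMSO, are described only. List genes and neighbours were tested with carbacyclin against DMSO, and list genes also in its interaction with the vector. Genes named from a list are up to 4 with the smallest adjusted p, and the ligands, co-receptors, carbacyclin receptors and closest relatives of the 9 genes. Etv4, Dusp5, Pde3b, Kcnma1, Plin2 and Ier3 were named after their values were seen.

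The replicate numbers of the labels were checked by correlating deviations from group means. In bexarotene against DMSO in MIG cells every pair exceeded 0.1 (3 pairs, r = 0.452 to 0.82), so these numbers may pair the libraries, and a replicate block changed none of its calls. The same held for carbacyclin against NOE in IK6 cells (3 pairs, r = 0.443 to 0.592), which is described only. There the block gave -0.07 for Slpi and -0.03 for Crisp3. No 2 replicates of a group agreed within sampling noise (51 pairs, chi-square per degree of freedom 2.32 to 242). Alternatives were RLE scaling, DESeq2 1.42.0, no filter, a stricter filter (1 CPM in 3 libraries), only the groups compared, the replicate block, a prior count of 2 in place of 0.125, each library left out, and the 3 libraries with a ribosomal protein share above 12% left out.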

Additional observations from a re-analysis of the deposited data

Results flagged for a closer look

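Single libraries stood apart from the other 3 of their group for 4 of the 55 combinations of gene and group with 4 libraries and more than 3 counts, by Dixon's criterion, which chance meets in about 1 of 20. Pdgfrb was at 0.0 CPM in IK6 ATRA replicate 4, against 0.0250 to 0.0299 CPM in the others. Slc17a8 was at 40.6 CPM in MIG NOE replicate 4, against 36.5 to 37.2 CPM. IK6 DMSO replicate 2 was high for Dmbt1, at 0.353 CPM against 0.196 to 0.208 CPM, and for Ret, at 0.0642 CPM against 0.0218 to 0.0260 CPM. Apart from Slc17a8, these levels rest on a handful of counts.

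The change with a compound differed between IK6 and MIG cells in 9 interaction tests (IK6 change minus MIG change, log2; edgeR, adjusted p). With NOE, Fgfr2 had -2.74 (9.52e-08), Slc17a8 -0.75 (8.17e-05), Slpi -1.37 (0.00656), Lrrc55 5.40 (0.00316) and Slc26a9 5.47 (0.0292). The values of Lrrc55 and Slc26a9 rest on 4 counts or fewer in MIG groups, and Slc26a9 passed the filter through its carbacyclin libraries alone. With ATRA, Fgfr2 had -2.01 (0.000108), Slpi -1.24 (0.000379), Crisp3 0.69 (0.00682) and Slc17a8 -0.48 (0.0131). Fgfr2 moved in opposite directions in IK6 and MIG cells with both compounds.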

How the results depend on the processing

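No tested change of the 9 genes reversed under any alternative. With only the groups compared in the fit, ATRA against DMSO in MIG cells had 1 call in place of 3 and NOE against DMSO in MIG cells had 3 in place of 5, since low genes no longer passed the filter. Leaving out single libraries gave 3 to 5 calls for the NOE interaction (3 without MIG DMSO replicate 2). For the list genes, the carbacyclin interaction had 14 to 26 calls (26 without MIG carbacyclin replicate 4, 16 with all libraries), and 25 without the 3 libraries of high ribosomal protein share. The cause was not tested. The other counts of calls stayed within 1.5 times under the alternatives run. Without those 3 libraries Crisp3 passed for bexarotene against DMSO in IK6 cells (edgeR, adjusted p = 0.0454), Ret for bexarotene against ATRA in MIG cells (0.0272) and Slc17a8 for NOE against ATRA in IK6 cells (0.0414). Single libraries also decided calls not described above: Dmbt1 (0.0334, without IK6 NOE replicate 3) and Pdgfrb (0.0138, without MIG NOE replicate 2) passed for IK6 against MIG with NOE, Lrrc55 for NOE against ATRA in MIG cells (0.0495, without NOE replicate 3) and Ret for bexarotene against ATRA in MIG cells (0.0322, without bexarotene replicate 3). Of the fitted values in the comparisons that are only described, a prior count of 2 moved 47 by more than 1 SD and left 15 within it. Leaving out single libraries moved 155 and left 377, leaving out the 3 libraries of high ribosomal protein share moved 21 and left 41, DESeq2 moved 15 and left 47, and the replicate block moved 10 and left 52. Groups with fewer than 10 counts limit what could be detected for Slc26a9, Pdgfrb, Lrrc55, Dmbt1 and Ret.

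With the replicate block, 3 calls were lost: Crisp3 with ATRA in IK6 cells (log2 0.29; adjusted p = 0.0553), Dmbt1 with bexarotene in IK6 cells (0.82; 0.0586) and Lrrc55 for bexarotene against ATRA in IK6 cells (-1.36; 0.06). ATRA against DMSO in IK6 cells then had 5 calls. No other call of the 9 genes changed. Over 19 comparisons and 68 pairs the correlation of same-numbered libraries ran from -0.67 to 0.82.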

Other observations

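Within the pathway lists, some genes responded to carbacyclin differently in IK6 and MIG cells (interaction, IK6 change minus MIG change, log2 ± SE; edgeR, adjusted p). The list of PPAR target genes also holds the receptor gene Ppard. Of the 13 tested genes of this list, 4 passed, all positive, where 5.66% of all genes tested were positive. Cd36, a fatty acid transporter, was at 11.8 CPM with carbacyclin and 11.0 CPM with DMSO in IK6 cells, and at 1.33 CPM with carbacyclin and 3.46 CPM with DMSO in MIG cells (1.47 ± 0.20; 2.04e-06). Plin2, a lipid droplet coat protein, rose in cells of both kinds, and further in IK6 cells (0.66 ± 0.18; 0.0151). Of 12 feedback genes of ERK signaling, 5 were positive and 2 negative. Ier3, an immediate early gene, was at 6.05 CPM with carbacyclin and 1.01 CPM with DMSO in IK6 cells, and at 1.16 CPM with carbacyclin and 0.719 CPM with DMSO in MIG cells (1.91 ± 0.31; 4.17e-05). Egr1, an early growth response factor of the cyclic AMP and CREB list, fell to 8.57 CPM with carbacyclin, against 39.4 CPM with DMSO in IK6 cells, and to 6.87 CPM with carbacyclin, against 9.02 CPM with DMSO in MIG cells (-1.82 ± 0.17; 3.02e-09).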
